A study of Mus musculus with 5 samples.

Results

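The alpha- and beta-crystallin genes were described in lens RNA of mouse embryos at embryonic day 14, in 3 control and 2 N-myc knockout libraries. Members were the rows of the deposited count table with the symbols Cryaa, Cryab, Cryba1, Cryba2, Cryba4, Crybb1, Crybb2 and Crybb3. These were 8 of 12370 rows, and all 8 passed the filter on low counts, as did 12035 genes in all. Control embryos carried loxP-flanked N-myc alleles (N-mycloxP/loxP) without Cre, and the labels also describe controls with loxP-flanked c-myc (c-mycloxP/loxP). The sources used here do not say which control library had which genotype, and the series' design text calls the controls wild type. Knockout embryos were Mlr10-Cre+/-; N-mycloxP/loxP. Mlr10-Cre is known as a Cre driven by a modified promoter of Cryaa, a member described here. It was present in both knockout libraries and in no control library, so effects of the transgene and of the deletion cannot be told apart. Lysates from individual animals were combined before RNA was purified, and the sources used here do not give the number in a pool.

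Crystallins are the soluble proteins that fill lens fibre cells and give the lens its refractive power. The alpha-crystallins belong to the small heat shock proteins and act as chaperones that hold unfolding proteins in solution. The beta-crystallins, with the gamma-crystallins, form a separate family built from Greek key folds. Beta-crystallins are divided into acidic (Cryba) and basic (Crybb) chains, which assemble into dimers and larger oligomers. PAX6, SOX and large MAF transcription factors are known regulators of crystallin promoters.

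The library totals were between 13162384 and 13746416 counts. Mycn, the targeted gene, had 2066, 1955 and 1848 counts in the control libraries (replicates 1 to 3) and 801 and 1141 in the knockout libraries (replicates 1 and 2). It was 2.16-fold lower in the knockouts (log2 fold change -1.11, SE 0.15, edgeR adjusted p = 0.0097). Without control replicate 2 its edgeR adjusted p was 0.056, the highest of 15 alternative fits (the lowest was 1.2e-10, by DESeq2). The lens identity was checked on a marker of fibre cells. The water channel gene Mip lay between 5413 and 9057 CPM, the count relative to the TMM-scaled library total. It was at 7910, 9025 and 9057 CPM in the controls and at 5413 and 7018 CPM in the knockouts. Mip was itself called lower (log2 fold change -0.48, edgeR adjusted p = 0.044). The call was lost with library totals only, with a replicate block, and without control replicate 2, control replicate 3 or knockout replicate 1. Knockout replicate 1 stood apart in markers of other tissues. In it, 14 of 16 listed genes of periocular mesenchyme that the table holds summed to 2041 CPM, against 357 CPM in knockout replicate 2 and 161 to 465 CPM in the controls. The 14 of 15 listed muscle genes held summed to 2409 CPM in knockout replicate 1, 95.4 CPM in knockout replicate 2 and 66.8 to 320 CPM in the controls. The 11 of 16 listed retina genes held summed to 97.3 and 176 CPM in the knockouts and to 71.4 to 75.1 CPM in the controls. In pooled tissue, fewer cells of a type and less RNA per cell cannot be told apart.

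The 8 genes lie on 5 chromosomes of GRCm38. Cryaa is on chromosome 17 (31677807 to 31681733, plus strand) and Cryab on chromosome 9 (50751325 to 50756636, plus strand). Cryba1 is on chromosome 11 (77718615 to 77725283, minus strand) and Cryba2 on chromosome 1 (74889934 to 74893143, minus strand). The other 4 form 2 pairs on chromosome 5. Cryba4 (112246493 to 112252518, minus strand) and Crybb1 (112255815 to 112269585, plus strand) are head to head with 3296 bases between them. Crybb2 (113058258 to 113070117) and Crybb3 (113075839 to 113081584) both lie on the minus strand, 5721 bases apart. Coding sequences of the alpha pair were identical at 70.2% of aligned bases, and those of the 15 beta pairs at 60.3% to 68.8%. Over all 28 pairs of members the longest stretch of identical coding bases was 22 bases.

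Promoters of 7 of the 8 genes were found by symbol in a RefSeq promoter table of GRCm38.p6, all except Cryab. The 150 bases before the RefSeq start are shown for beta-crystallins that differ in abundance and fold change. Cryba1 and Cryba4 had the lowest fold changes of the beta genes, Crybb1 and Crybb3 were the abundant basic genes, and Crybb2 was the least abundant member. Cryaa is not shown because most of that stretch lies within a GENCODE transcript, and in Crybb1 a GENCODE transcript covers the last few bases. Capitals mark TGCTGA, an arm of the palindrome that MAF factors recognise, on either strand (TCAGCA on the other), and TATAAA.
Cryba1 (chr11:77725294-77725443, minus strand): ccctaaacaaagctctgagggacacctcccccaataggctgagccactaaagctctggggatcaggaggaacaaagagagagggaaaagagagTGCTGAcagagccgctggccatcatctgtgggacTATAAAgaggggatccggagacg
Cryba4 (chr5:112252519-112252668, minus strand): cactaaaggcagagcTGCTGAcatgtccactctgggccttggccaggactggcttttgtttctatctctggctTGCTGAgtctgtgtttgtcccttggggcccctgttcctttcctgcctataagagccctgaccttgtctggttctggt
Crybb1 (chr5:112255670-112255819, plus strand): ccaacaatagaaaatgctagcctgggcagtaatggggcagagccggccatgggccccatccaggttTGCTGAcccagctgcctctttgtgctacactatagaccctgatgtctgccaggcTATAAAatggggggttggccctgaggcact
Crybb2 (chr5:113070118-113070267, minus strand): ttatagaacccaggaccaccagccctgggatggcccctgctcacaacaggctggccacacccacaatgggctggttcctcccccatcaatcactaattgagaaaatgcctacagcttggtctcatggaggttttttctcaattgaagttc
Crybb3 (chr5:113081585-113081734, minus strand): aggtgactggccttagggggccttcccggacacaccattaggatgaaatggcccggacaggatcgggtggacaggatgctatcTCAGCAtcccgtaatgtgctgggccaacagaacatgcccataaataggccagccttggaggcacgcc
In the window from 250 bases before to 50 bases after the start, TGCTGA was present on either strand in 6 of the 7 promoters, all except Crybb2. Of all 32851 promoters in the table, 19.5% held it in that window. Cryba4 held 3 copies, of which 2 lie in the stretch shown. On either strand, ACAAT, the core of SOX sites, was in the windows of Cryaa, Crybb1 and Crybb2, against 31.0% of all promoters. TATAAA, also on either strand, was in those of Cryba1, Cryba2 and Crybb1, against 13.6%. CACGTG, the E-box bound by MYC and MAX, was in 0 of the 7 windows and in 7.2% of all promoters. The heat shock element core GAANNTTC was in 0 of the 7 and in 7.9%. The sites found did not overlap each other, and a match or its absence in this window is a description only.

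**Figure D1:**
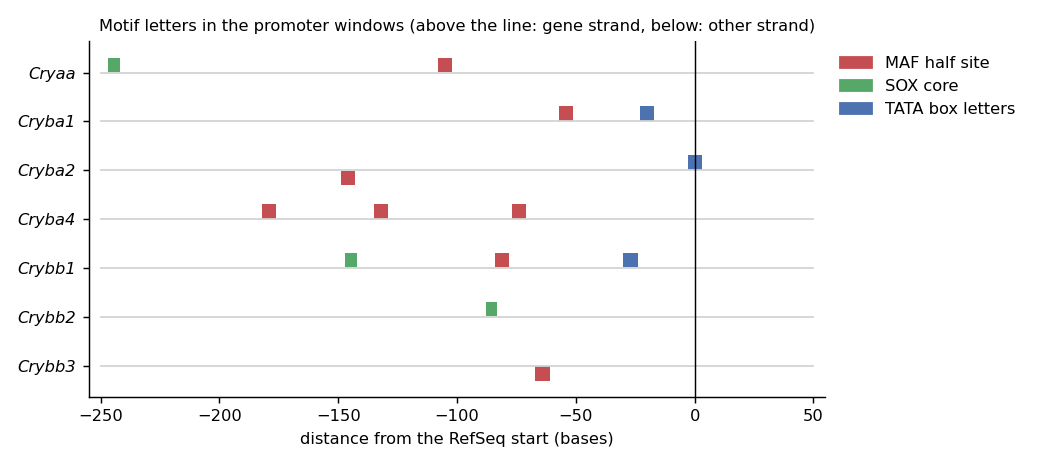
Positions of TGCTGA (red), ACAAT (green) and TATAAA (blue) in the promoter windows of 7 member genes; the horizontal axis is the distance from the RefSeq start in bases, with the start as a vertical line, and bars above or below each line are on the gene's strand or the other strand. TGCTGA was found in 6 of the 7 windows and Cryba4 held 3 copies.

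Of the alpha-crystallins Cryab fell and Cryaa did not pass the test. Cryaa, the more abundant chaperone subunit, stood at 43689, 51873 and 41902 CPM in the control libraries and at 44246 and 50153 CPM in the knockout libraries. The knockout libraries lay within the range of the controls. The means were 45821 ± 5316 CPM (SD, n = 3) and 47199 ± 4177 CPM (SD, n = 2), and the log2 fold change was 0.043 (95% interval -0.22 to 0.31, SE 0.12, edgeR adjusted p = 0.82). Cryab, the stress-inducible subunit that muscle and other tissues also express, stood at 901, 1182 and 1079 CPM in the controls and at 620 and 727 CPM in the knockouts. Both knockout libraries were below every control library. Cryab fell 1.57-fold, from 1054 ± 142 (SD, n = 3) to 673 ± 75.8 CPM (SD, n = 2; log2 fold change -0.65, 95% interval -0.96 to -0.33, SE 0.14, edgeR adjusted p = 0.024). The Cryab call was lost without control replicate 2 (edgeR adjusted p = 0.092), without control replicate 3 (0.076) and without knockout replicate 1 (0.14). It held in the other 12 of 15 alternative fits (adjusted p 2.1e-05 to 0.14 over the 15, the lowest by DESeq2). The log2 fold change of Cryab stayed between -0.77 and -0.53 in all 15. Knockout replicate 1, where the muscle and mesenchyme markers were highest, had the lowest Cryab level. Without that library the log2 fold change of Cryab was -0.53. The part of other tissues in the Cryab level was not tested.

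Among the acidic beta-crystallins 0 of 3 passed the test, and all 3 had lower means in the knockouts. Cryba1, whose mRNA gives a long and a short protein from separate start codons, was at 15223, 24281 and 20601 CPM in the controls and at 12274 and 15936 CPM in the knockouts. Knockout replicate 2 lay just above control replicate 1, the lowest control, so the groups overlapped. The log2 fold change was -0.51 (95% interval -0.96 to -0.055, SE 0.20, unadjusted p = 0.0321, edgeR adjusted p = 0.11). Without control replicate 1, Cryba1 passed with an edgeR adjusted p of 0.032, the lowest of its 15 alternative fits (highest 0.49). Cryba1 has the lowest GC content of the members, 42.7% in its longest transcript and 47.2% in its longest coding transcript. The longest transcripts of the others had 54.4% to 61.8%. With each library's trends on length and GC content of transcripts removed, its log2 fold change was -0.14 (95% interval -0.43 to 0.15, edgeR adjusted p = 0.49). The corrected Cryba1 levels were 15323, 20819 and 17702 CPM in the controls and 15182 and 17372 CPM in the knockouts. Cryba2 was at 2879, 3861 and 3320 CPM in the controls and at 2448 and 3145 CPM in the knockouts (log2 fold change -0.26, 95% interval -0.62 to 0.091, edgeR adjusted p = 0.26). Cryba4, the chain encoded next to Crybb1, was at 2552, 3895 and 3016 CPM in the controls and at 2151 and 2846 CPM in the knockouts (log2 fold change -0.34, 95% interval -0.77 to 0.10, edgeR adjusted p = 0.24). In both genes knockout replicate 1 was the lowest library and control replicate 2 the highest, and knockout replicate 2 lay above control replicate 1.

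Of the basic beta-crystallins 0 of 3 passed the test, and their fold changes had both signs. Crybb1, the most abundant basic chain, was at 12852, 15125 and 12830 CPM in the controls and at 13534 and 15147 CPM in the knockouts (log2 fold change 0.076, 95% interval -0.17 to 0.33, edgeR adjusted p = 0.64). Crybb3 was at 6980, 9955 and 7905 CPM in the controls and at 5740 and 7800 CPM in the knockouts (log2 fold change -0.29, 95% interval -0.70 to 0.12, edgeR adjusted p = 0.28). The groups overlapped for both genes. Crybb2, known as a major crystallin of the lens after birth, had 48, 66 and 60 counts in the control libraries and 68 and 81 in the knockout libraries. Its levels of 3.76, 5.01 and 4.55 CPM and of 4.87 and 5.81 CPM overlapped (log2 fold change 0.26, 95% interval -0.27 to 0.80, edgeR adjusted p = 0.44). The interval for Crybb2 was the widest of the 8 members. With the length and GC trends removed its levels were 3.94, 4.59 and 4.73 CPM in the controls and 5.06 and 5.62 CPM in the knockouts. The groups then did not overlap, and Crybb2 was not called (edgeR adjusted p = 0.43).

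**Figure D2:**
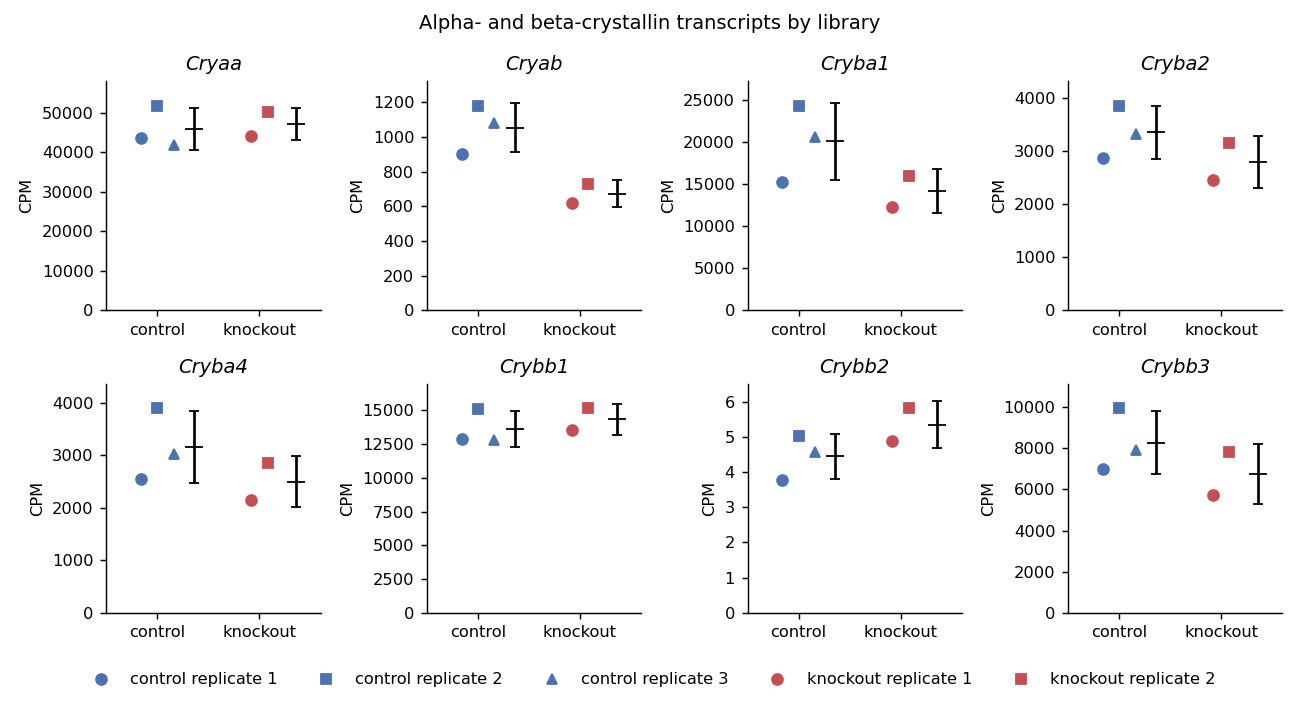
TMM-scaled CPM of the 8 genes in each library (vertical axes from 0, a panel per gene), with blue points for controls, red points for knockouts, and black bars for the group mean ± SD (n = 3 and n = 2). Both knockout points lie below every control point for Cryab (620 and 727 against 901 to 1182 CPM), while the groups overlap in the other 7 panels.

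In all, 1 of the 8 members was called lower and 0 higher (edgeR adjusted p under 0.05), where 8.51% of the 12035 tested genes were called lower, 7.98% higher and 16.5% in either direction. The members' share of 12.5% is near that background. At an unadjusted p under 0.05 there were 2 members, Cryab and Cryba1. Both knockout libraries lay below every control for 1 member, against 27% of all tested genes, and 52.5% of all tested genes had groups that did not overlap in either direction. The median log2 fold change of the members was -0.28, with 5 below 0, and that of all tested genes was 0.0021. DESeq2 and limma-voom also called Cryab and no other member. After removal of the length and GC trends, the log2 fold change of Cryab was -0.55 (edgeR adjusted p = 0.012), that of Cryaa 0.078 and that of Crybb1 0.0014. Cryba2 (-0.25), Cryba4 (-0.29), Crybb3 (-0.27) and Crybb2 (0.27) stayed near their values from the deposited counts, and none of these 4 passed.

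**Figure D3:**
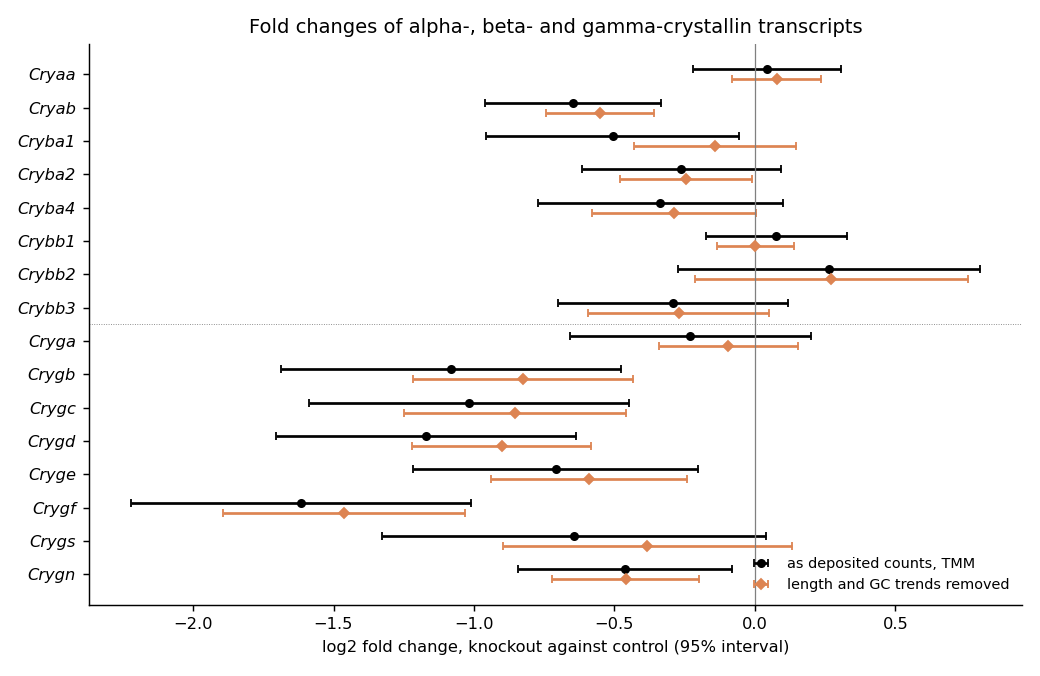
Fitted log2 fold changes of knockout against control (horizontal axis) with 95% intervals for the 8 alpha- and beta-crystallins and, under the dotted line, 8 gamma-crystallins; black points are from the deposited counts and orange points from the fit with length and GC trends removed. The Cryab interval (-0.96 to -0.33 from the deposited counts) lies below 0 in both fits, and Cryba1 moves from -0.51 to -0.14. The Cryba1 interval lies below 0 in the deposited-count fit only. The Cryba2 interval lies below 0 only with the trends removed (-0.48 to -0.012), and neither gene passed in either fit.

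Levels of different genes were compared per kilobase of the longest transcript. Cryaa had the highest mean level over the 5 libraries, 36629 CPM per kilobase, 2.32-fold above Crybb1 with no overlap of their ranges. Crybb1 (15757 CPM per kilobase) and Cryba1 (12827 CPM per kilobase) had overlapping ranges. Crybb3 (5409 CPM per kilobase) lay 2.37-fold below Cryba1 with no overlap. The ranges of Crybb3 and Cryba4 (3579 CPM per kilobase) overlapped, as did those of Cryba4 and Cryba2 (3392 CPM per kilobase). Cryab stood at 807 CPM per kilobase, 4.20-fold below Cryba2 with no overlap. Crybb2 was last at 5.30 CPM per kilobase, 152-fold below Cryab. For Cryba1, Cryba2 and Crybb3 the longest transcript is not annotated as protein-coding. Per kilobase of the longest coding transcript Cryba1 (22703) stood above Crybb1 (15757), and Cryba2 (4348) above Cryba4 (3579), and per kilobase of the union of exons Cryba4 (3451) stood above Crybb3 (3290). The order within these 3 pairs therefore depends on the length used.

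The 8 genes took 8.25%, 10.6% and 9.04% of all counts in the control libraries, against 8.57% and 9.71% in the knockout libraries. The knockout values lay within the control range. Within the members' counts, Cryaa made up 51.4%, 47.1% and 46.2% in the controls, against 54.6% and 52.4% for the knockouts. Crybb1 made up 15.1%, 13.7% and 14.2% in the controls, against 16.7% and 15.8%. Cryba1 made up 17.9%, 22.0% and 22.7%, against 15.1% and 16.6%. Control replicate 1 was the control nearest to the knockouts for these 3 genes. From the deposited counts the groups did not overlap for 8 of 8 members, and 31.7% of all tested genes had groups that did not overlap when set against the same summed counts. After removal of the length and GC trends they did not overlap for 6 members. The share over all tested genes was not computed for that setting, so this count has no background beside it. Cryba1 then made up 17.4%, 20.7% and 19.8%, against 17.7% and 18.2%, and Crybb1 made up 15.2%, 14.2% and 15.5%, against 15.7% and 14.9%. The groups thus overlapped for Cryba1 and Crybb1. Cryaa made up 51.7%, 47.7% and 47.3%, against 53.4% and 52.0%. Shares of a total depend on each other, and they were not tested.

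**Figure D4:**
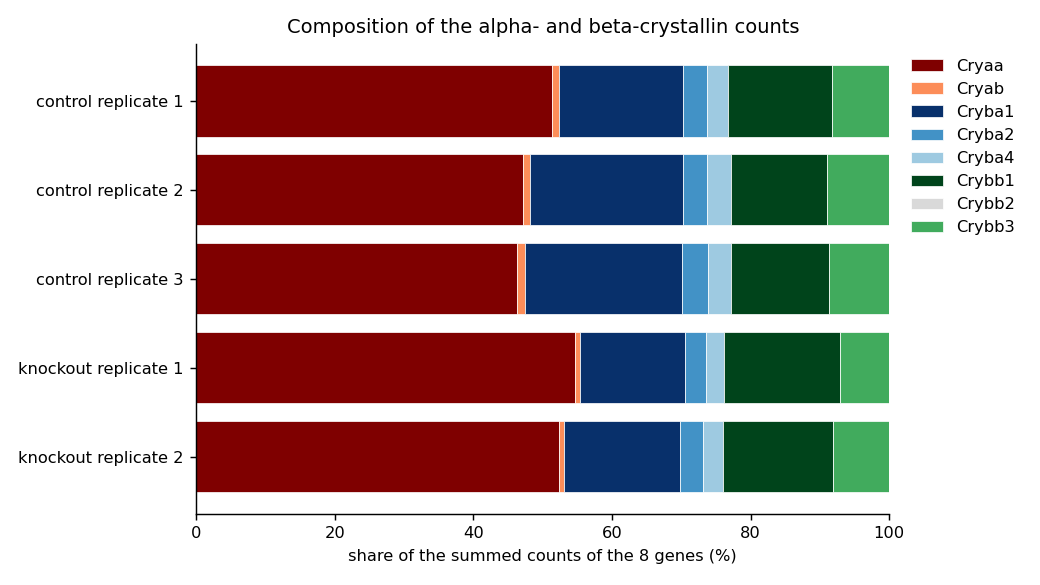
Share of the summed alpha- and beta-crystallin counts taken by each gene (percent) in each of the 5 libraries; Crybb2, at most 0.00607%, is too thin to see. Cryaa takes 52.4% to 54.6% in the knockouts and 46.2% to 51.4% in the controls, and Cryba1 15.1% to 16.6% against 17.9% to 22.7%, from deposited counts; the Cryba1 shares overlap once length and GC trends are removed (17.7% to 18.2% against 17.4% to 20.7%).

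Ratios between members within a library do not depend on how libraries are scaled, and they are given as values with no test. For each Cryab count there were 48.5, 43.9 and 38.8 Cryaa counts in the controls, against 71.4 and 69.0 for the knockouts. On the log2 scale this ratio was 0.69 higher in the knockouts, where the control SD was 0.16, and 0.63 higher with the length and GC trends removed. For the divergent neighbours, the Crybb1 count was 5.04, 3.88 and 4.25 times the Cryba4 count in the controls, against 6.29 and 5.32 times. The difference in log2 ratio was 0.41, and 0.29 with the trends removed, with the knockouts above each control both times. For the neighbours Crybb2 and Crybb3 the log2 ratio was 0.56 higher in the knockouts, on 48 to 81 Crybb2 counts, and again the groups did not overlap.

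Ratios that involve Cryba1 depended on the length and GC trends. The Cryba1 count was 1.18, 1.61 and 1.61 times the Crybb1 count in the controls, against 0.907 and 1.05 times. This difference of -0.57 in log2 ratio became -0.13 with the trends removed, and the groups then overlapped. The summed acidic chains were 1.04, 1.28 and 1.30 times the summed basic chains in the controls, against 0.875 and 0.955 times. That difference of -0.39 became -0.073, with overlap. The beta sum was 0.908, 1.08 and 1.11 times the alpha sum in the controls, against 0.806 and 0.882 times, a log2 difference of -0.29. With the trends removed the difference was -0.20, and control replicate 1 (0.896) and knockout replicate 2 (0.895) were nearly equal.

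**Figure D5:**
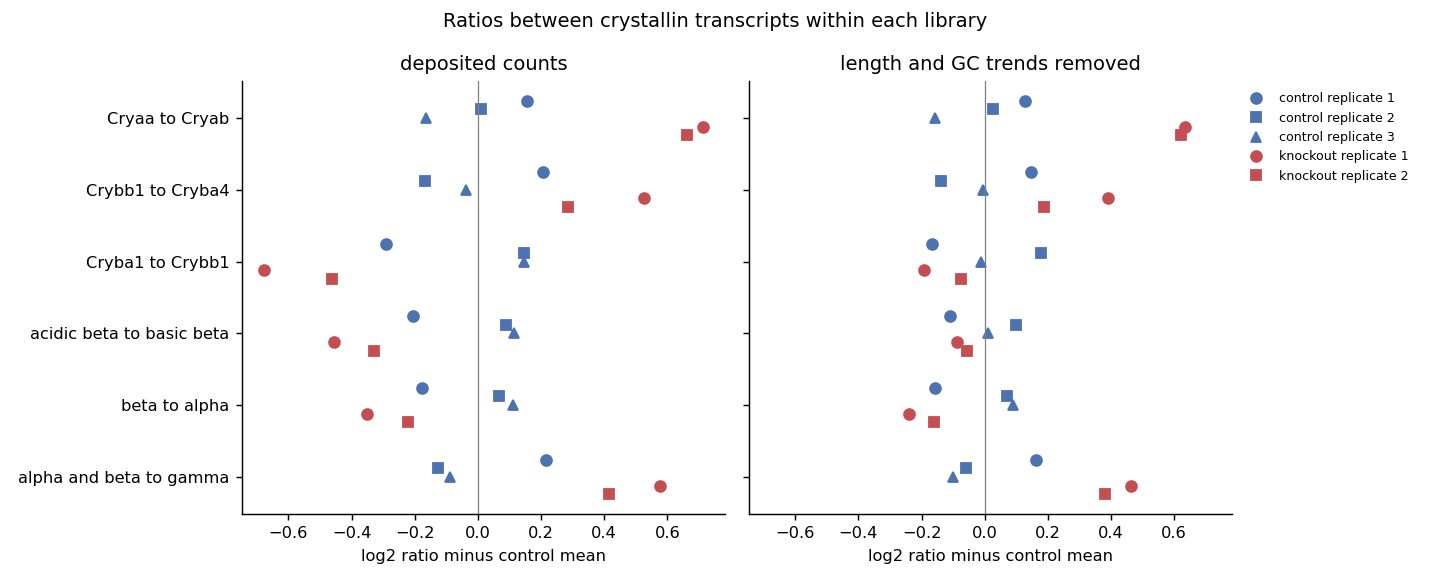
Log2 count ratios between members or groups of members in each library, minus the control mean (horizontal axis), for deposited counts (left) and with length and GC trends removed (right); blue points are controls, red points knockouts. Cryaa to Cryab is 0.69 and 0.63 higher in the knockouts, whereas Cryba1 to Crybb1 moves from -0.57 to -0.13 and then overlaps.

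Of 8 genes of the related gamma-crystallins 4 fell, against 8.51% of all tested genes, and the others did not pass. The median log2 fold change of the 8 was -0.86. The 4 were Crygf (log2 fold change -1.62), Crygd (-1.17), Crygb (-1.08) and Crygc (-1.02). Several gamma genes are known as near-identical copies whose reads can be shared, so values of single genes are uncertain. Alpha and beta counts together were 3.90, 3.08 and 3.16 times the gamma counts in the controls, against 5.01 and 4.49 times. The knockouts lay above each control, and the group means differed by 0.50 on the log2 scale and by 0.42 with the trends removed. Omitting control replicate 2 or control replicate 3 left 0 gamma-crystallin genes called, and omitting knockout replicate 1 left 1. Fits without control replicate 1 and without knockout replicate 2 called 6 and 7.

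Of 11 fibre genes that encode no crystallin, 8 fell (median log2 fold change -0.84), against 8.51% of all tested genes. Dnase2b, which degrades fibre cell DNA, was at 29.5, 44.4 and 51.2 CPM in the controls and at 5.01 and 5.45 CPM in the knockouts. Bfsp1, a beaded filament gene (log2 fold change -1.62), Lenep (-1.04) and the actin capper Tmod1 (-0.98) were also among the 8. So was Hsf4, which is counted again below with the transcription factors. Omitting control replicate 2 left 1 gene of this list called, and omitting control replicate 3 or knockout replicate 1 left 3. Relative to the summed counts of this list, Cryab had log2 ratios of -4.78, -4.51 and -4.71 in the controls, against -4.80 and -4.84. The knockouts lay just below control replicate 1, a difference of -0.15 in the group means. After removal of the length and GC trends the difference was -0.030 and the groups overlapped. Of 12 lens epithelium genes edgeR called 0, with 2 at an unadjusted p under 0.05, and DESeq2 called 1 and limma-voom 0. The epithelium list summed to 1685 to 1787 CPM in the controls and to 1795 and 1836 CPM in the knockouts.

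Genes that overlap members matter because the strand setting of the counting was not stated in the labels or file. Hspb2, a small heat shock gene on the strand opposite Cryab, overlaps it over 1030 bases. It stood at 5.25, 6.91 and 6.75 CPM in the controls and at 4.87 and 4.45 CPM in the knockouts (log2 fold change -0.44, SE 0.22, edgeR adjusted p = 0.19), far below Cryab. The whole of Cryba1 lies inside a gene model of Nufip2 on the opposite strand. Nufip2, named for this overlap after its values were seen, stood at 311, 295 and 330 CPM in the controls and at 215 and 244 CPM in the knockouts. It fell (log2 fold change -0.44, SE 0.094, edgeR adjusted p = 0.025), and 9 of 15 alternative fits called it (adjusted p 0.00011 to 0.14). It was not called with the length and GC trends removed, with a replicate block, or without control replicate 2, control replicate 3 or knockout replicate 1.

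The 12 nearest tested genes on either side of members or of their pairs included 3 that rose and 0 that fell. Hspb2 and Nufip2, which overlap members, were not counted as neighbours, and Nufip2 fell, as given above. Over all tested genes 7.98% were called higher and 8.51% lower. Sik1, a kinase gene 162516 bases from Cryaa, was at 39.3, 36.1 and 37.4 CPM in the controls and at 50.8 and 47.1 CPM in the knockouts. Grk3, a receptor kinase gene 42466 bases from Crybb2, rose by 0.92 on the log2 scale (SE 0.23, edgeR adjusted p = 0.037). 2900026A02Rik, 4738 bases from Crybb3, rose by 0.42 (log2, SE 0.11, edgeR adjusted p = 0.045). With the length and GC trends removed none of the 3 was called, nor without control replicate 2, control replicate 3 or knockout replicate 1. The genes next to Cryab, 2310030G06Rik (log2 fold change -0.31) and 1110032A03Rik (-0.44), were not called, with edgeR adjusted p of 0.25 and 0.12.

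Of the 6 tested genes for other small heat shock proteins edgeR called 0, with 1 at an unadjusted p under 0.05, and DESeq2 and limma-voom called 0 each. Hspb3 was at 9.72, 10.2 and 11.6 CPM in the controls and at 6.51 and 7.60 CPM in the knockouts (log2 fold change -0.57, SE 0.17, edgeR adjusted p = 0.057). Among 5 tested distant relatives and enzyme crystallins of other animals, Crym, a thyroid hormone-binding protein that is a lens crystallin in marsupials, rose. It had 12, 2 and 12 counts in the control libraries, against 71 and 56 (log2 fold change 2.76, SE 0.52, edgeR adjusted p = 0.019). The Crym call was lost without control replicate 2, control replicate 3 or knockout replicate 1 (adjusted p up to 0.067).

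Of 26 tested genes for transcription factors tied to crystallin promoters, 3 rose and 2 fell. Over all tested genes 7.98% were called higher, 8.51% lower and 16.5% in either direction. Maf, the large MAF factor of fibre cells, was at 1277, 1267 and 1402 CPM in the controls and at 771 and 1030 CPM in the knockouts (log2 fold change -0.55, SE 0.13, edgeR adjusted p = 0.035). Hsf4, the heat shock factor of the lens, was at 145, 144 and 145 CPM in the controls and at 108 and 119 CPM in the knockouts (log2 fold change -0.35, SE 0.079, edgeR adjusted p = 0.029). Both knockout libraries were below every control for Maf and for Hsf4, and with a replicate block neither was called. Pitx3, a homeobox factor of the lens, was at 117, 103 and 87.0 CPM in the controls and at 149 and 148 CPM in the knockouts. Gata3 (log2 fold change 0.43) also rose, as did Sox11 (0.56), which is named to complete the 5. With library totals or upper quartile scaling 6 were higher and 2 lower. With the length and GC trends removed 1 was higher and 4 were lower, and the list's median log2 fold change moved from 0.10 to -0.027. Omitting control replicate 2 or control replicate 3 left 0 of them called, and omitting knockout replicate 1 left 1, which was higher.

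Of 12 genes for RNA-binding proteins of lens mRNAs, 3 fell and 0 rose (8.51% and 7.98% over all tested genes). Caprin2 was at 1315, 1630 and 1769 CPM in the controls and at 667 and 729 CPM in the knockouts (log2 fold change -1.17, SE 0.14, edgeR adjusted p = 0.0073). Tdrd7, a component of RNA granules in fibre cells, was at 1353, 1453 and 1472 CPM in the controls and at 953 and 1050 CPM in the knockouts (log2 fold change -0.51, SE 0.096, edgeR adjusted p = 0.019). Pabpc1, which binds poly(A) tails, fell by 0.51 on the log2 scale (SE 0.086, edgeR adjusted p = 0.014). Omitting control replicate 2 left 0 of these called, and omitting control replicate 3 or knockout replicate 1 left 1. DESeq2 called 5 of the 12. Markers of mesenchyme, muscle and retina were higher in 1 or both knockout libraries, as given above, and their part in these results was not tested.

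Likeness of pattern was measured as the root mean square difference of centred log2 (CPM + 1) over the 5 libraries, among 10448 other genes with a mean of at least 5 CPM. The genes nearest to Cryaa were Arl2 (0.010), Zfp775 (0.028) and Mcur1 (0.033). Those nearest to Cryab were Skp1a (0.024), the ribosomal protein gene Rpl4 (0.029) and Spg21 (0.034), each of which was called lower. Those nearest to the mean of the 6 beta members were Cox6a1 (0.032), Mrpl45 (0.033) and Cwc22 (0.035), and none of these was called. These genes were picked by likeness over the same libraries, so whether they were called follows from the choice. With 5 libraries such matches are a description of these libraries.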

How the data were processed

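Sequencing was done on RNA of pooled lenses, in 3 control and 2 knockout libraries. What the authors deposited is a single matrix of raw read counts by gene symbol. All values were checked to be whole, and column totals differ. Per the submitters' processing notes, mm10 and these tools were used, with no role or order given: HTSeq 0.6.1, DESeq2, Trim Galore 0.3.7, Cufflinks 2.2.1 and TopHat2 2.0.13. For the annotation, the strand setting and the rule for keeping rows, the sources used here give nothing.

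The edgeR 4.0.16 analysis of these counts (R 4.3.3) used filterByExpr (minimum count 10), TMM scaling, estimateDisp, glmQLFit and glmQLFTest over all 12035 genes kept. Benjamini-Hochberg adjustment had a threshold of 0.05. SE was obtained as log2 fold change over the root of F, and 95% intervals used the t distribution with the fit's degrees of freedom. The series calls the libraries biological replicates, and p-values cover only the variation among these 5 pools. No pair of libraries of a group agreed within sampling noise (chi-square over its degrees of freedom 10.1 to 23.6). Alternatives used DESeq2 1.42.0, limma 3.58.1 (voom), other scalings, no filter, each library left out, a replicate block, and offsets from loess trends of each library on transcript length and GC content. Corrected ratios, coding transcript lengths, and the ratios of Cryba1 to Crybb1 and of Cryab to the fibre list were added after the data were seen. The scripts were tested on simulated data.

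GENCODE vM21 (GRCm38, which is mm10) gave positions, lengths and GC content, and RefSeq (GRCm38.p6) gave promoters. Coding sequences were aligned globally with Biopython 1.88. A protein comparison was planned and not run, and coding bases were compared instead. The members and gene lists were chosen with earlier results of these data known. Named genes were the members, Mycn, up to 4 called genes of a list by smallest p (up to 2 as values where none was called), the nearest genes by pattern and the nearest genes on the chromosome. Overlapping genes and tissue markers were added. Further lists held markers of red blood cells, endothelium, surface ectoderm, pigment and immune cells. Of their 5, 10, 4, 3 and 4 tested genes edgeR called 0, 0, 0, 2 (Mitf lower, Pmel higher) and 1 (Cd68, higher). DESeq2 called 1, 0 and 0 of the first 3 lists and limma-voom 0, 0 and 1, with 1 gene of each at an unadjusted p under 0.05. Of 11 muscle genes edgeR called 0, with 8 at an unadjusted p under 0.05 and 0 called by DESeq2 or limma-voom. The median log2 fold change of the muscle genes tested was 2.63 in the main fit. It was 3.61 without knockout replicate 2 and -0.89 without knockout replicate 1. Of 14 mesenchyme genes 6 were higher (DESeq2 3, limma-voom 2), and 0 without knockout replicate 1 or control replicate 2, 1 without control replicate 3, 2 without control replicate 1 and 12 without knockout replicate 2. Of 11 retina genes 8 were higher (DESeq2 8, limma-voom 4), with 0 when control replicate 2 was left out, 1 when control replicate 3 was, and 4 when control replicate 1 or knockout replicate 2 was.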

Additional observations from a re-analysis of the deposited data

How the results depend on the processing

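With 3 and 2 libraries, calls rested on single libraries. The number of members called ranged from 0 to 2 over the fits that left out 1 library, and was 0 without control replicate 2, control replicate 3 or knockout replicate 1. The 2, without control replicate 1, were Cryab and Cryba1. Over all genes those fits called between 38 (without control replicate 2) and 2718 (without knockout replicate 2), against 1984 with all 5. The replicate block gave 996 genes, 474 higher and 522 lower, and still called 1 member, Cryab. Same-numbered libraries had correlations of their deviations of 0.055 and 0.0577 over 5000 genes, and the other values were -0.0577 to 0.0143. The deviations of 2 knockout libraries from their mean mirror each other, so these correlations cannot settle whether the numbers are pairs. The numbers were not taken as pairs in the main fit. Removing length and GC trends gave 1175 genes (437 higher, 738 lower), or 1197 with coding transcripts. With library totals as the only scaling 1509 were higher and 637 lower, against 960 and 1024, the median log2 fold change of all genes shifted by 0.085, and Cryab was still called lower. Under the trend removal the difference in acidic to basic log2 ratio was -0.073 and that of Cryba1 to Crybb1 -0.13. Of the 8 members, 4 kept their rank of level per kilobase with coding transcript lengths and 6 with the union of exons. The share of counts taken by the members differed by -0.17 percentage points, and by between -0.74 and 0.50 without 1 library. Crybb2 rested on 48 to 81 counts a library.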
